A study of Mus musculus with 6 samples.

Results

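The genes of the apoptosome, of 3 caspases and of the inhibitor of apoptosis (IAP) proteins with their antagonist were followed in early thymic progenitors that lack Tcf1. The 8 genes were Apaf1, Casp9, Casp8, Casp6, Birc2, Birc3, Xiap and Diablo, listed by name. They were chosen with earlier results of these data known. The platform annotation assigned 20 probe sets to exactly 1 of these symbols, out of 45037 tested probe sets and 18193 named genes. Early thymic progenitors are the first T-lineage precursors of the thymus, here sorted by surface markers as Lin-CD44+CD25-kit+ cells. RNA of 3 Tcf1-/- and 3 Tcf1-/+ samples, on a C57Bl/6 background and from mice killed at 10 weeks of age, was hybridized to Affymetrix Mouse Genome 430 2.0 arrays, 1 array per sample. No group was treated. The sample titles name the controls Tcf1-/+, whereas their genotype field reads wild type, so whether the controls carry 1 inactive allele cannot be settled from the labels. Arrays of 1 genotype are biological replicates per the titles, and neither the construction of the Tcf1 allele nor the number of mice behind an array is stated. If cells of 1 array came from several mice, the spread between arrays may be smaller than that between mice. The sex-linked signals of each array are given below.

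Apoptosis through mitochondria starts when cytochrome c leaves them and binds Apaf1, which then assembles into a wheel, the apoptosome, that recruits and activates the initiator caspase-9. Death receptors such as Fas activate a different initiator, caspase-8, and both routes converge on executioner caspases that cleave cellular proteins. Xiap blocks caspases directly, Birc2 and Birc3 (cIAP1 and cIAP2) are ubiquitin ligases that act mainly on death receptor and NF-kB signalling, and Diablo (Smac) leaves mitochondria to displace IAP proteins. Thymocytes are removed in large numbers by apoptosis during selection, and early progenitors depend on cytokine and Notch signals to stay alive.

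Values are log2 levels per probe set as deposited, and the brightest probe set of a gene, averaged over all arrays, is given first. The values of a genotype stand in the order of replicates 1, 2 and 3. Differences are Tcf1-/- minus Tcf1-/+, so a negative one means less signal without Tcf1. The background level of 5.21 is the 95th percentile of control probe sets for bacterial RNA. Levels of different probe sets were not ranked against each other, because each binds its target with its own strength. Of the 20 probe sets, 0 passed limma's adjusted threshold of 0.05, and over all tested probe sets 0% passed as well. The adjusted p of the 20 lay between 0.598 and 0.994. At an unadjusted p under 0.05, limma found 2 of the 20 lower in Tcf1-/-, Apaf1 and Birc2, against 3.51% of all probe sets, and 0 higher, against 2.97%. All 3 Tcf1-/- arrays lay below all 3 Tcf1-/+ arrays for 2 of the 20, the same probe sets, against 5.27% of all probe sets. They lay above for 1, of Casp9, against 6.51%. With single arrays left out, between 1 and 5 of the 20 had an unadjusted limma p under 0.05, with 5 without Tcf1-/+ replicate 1, and 1 without Tcf1-/- replicate 1, Tcf1-/- replicate 2 or Tcf1-/+ replicate 2. The count of lower probe sets rests on 2 of 20 and that of higher ones is near the background. Of the 20 probe sets, 11 means were higher and 9 lower in Tcf1-/-, with a median difference of 0.05, and the median over all probe sets was 0.03.

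**Figure D1:**
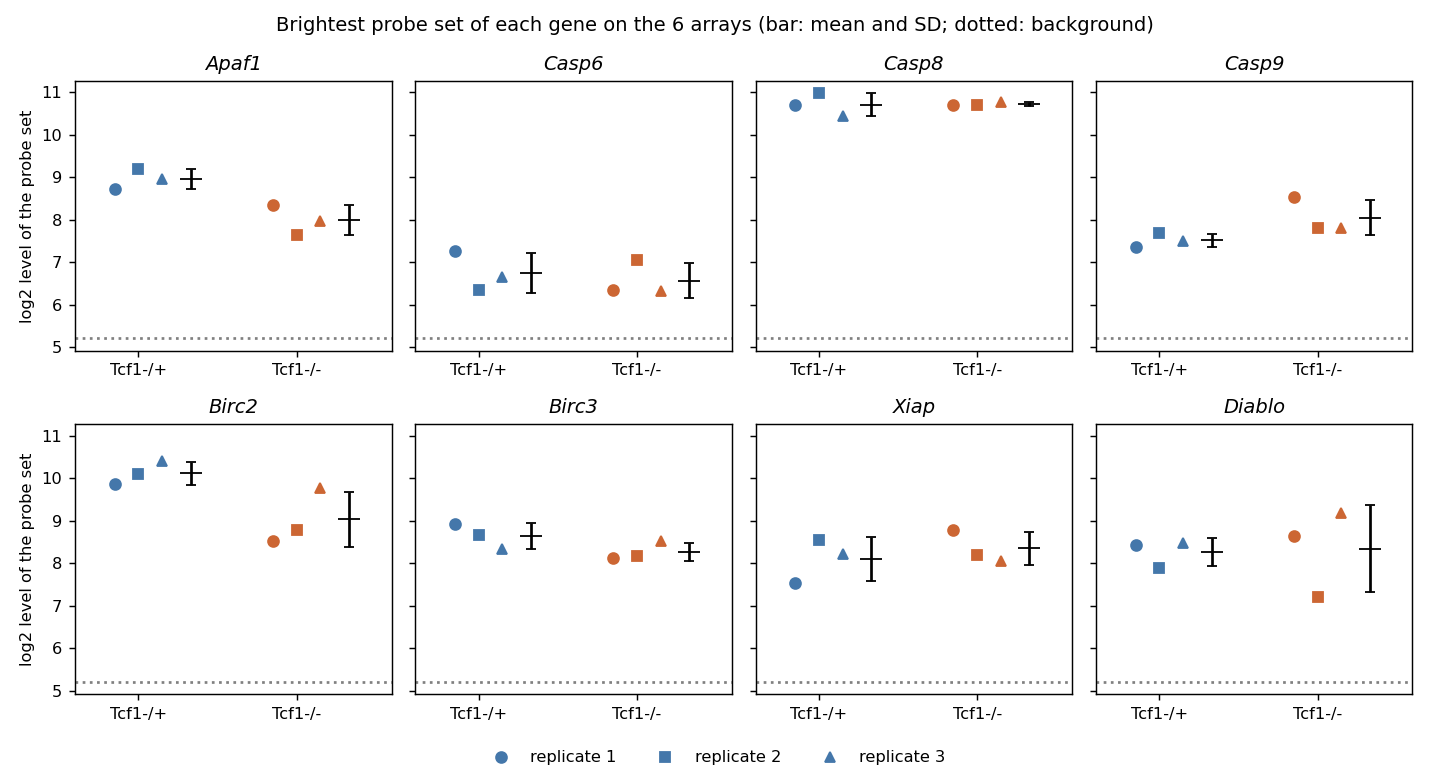
Log2 level of the brightest probe set of each of the 8 genes on the 6 arrays, by genotype (blue Tcf1-/+, orange Tcf1-/-), with replicate numbers as symbols. Black bars are the mean and SD of 3 arrays, and the dotted line is the background level of 5.21. The genotypes do not overlap for Apaf1, Birc2 and Casp9.

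Apaf1, the scaffold of the apoptosome, had the smallest unadjusted p of the 8 genes. Its brighter probe set, 1452870_at, read 8.35, 7.65 and 7.98 on Tcf1-/- replicates 1, 2 and 3. It read 8.74, 9.19 and 8.96 on Tcf1-/+ replicates 1, 2 and 3. Every Tcf1-/- array was thus below every Tcf1-/+ array, with Tcf1-/- replicate 1 closest to the controls. The means were 7.99 ± 0.35 (SD, n = 3) and 8.96 ± 0.23 (SD, n = 3), so that Tcf1-/- was lower by 1.96-fold. On the log2 scale this is a difference of -0.97 (95% confidence interval -1.61 to -0.33). It did not pass over all probe sets, with a limma adjusted p of 0.598. Its unadjusted limma p was 0.00990, and between 0.00723 and 0.0361 with single arrays left out. In sorted cells, fewer cells that express a gene and less of its RNA per cell cannot be told apart. The other probe set, 1450223_at, read 8.62, 7.29 and 7.46 in Tcf1-/- and 9.06, 9.06 and 7.44 in Tcf1-/+. Its difference had the same sign, -0.73, but its interval of -2.15 to 0.69 included 0, because Tcf1-/+ replicate 3 lay with the lower Tcf1-/- arrays. With the probe sets averaged, Apaf1 differed by -0.85 with an unadjusted limma p of 0.0557.

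Casp9 encodes the initiator caspase that Apaf1 recruits, and all 3 of its probe sets had a higher mean in Tcf1-/-. The brightest, 1426125_a_at, read 8.53, 7.80 and 7.82 in Tcf1-/- and 7.36, 7.68 and 7.51 in Tcf1-/+. The genotypes did not overlap, but the lowest Tcf1-/- array lay close to the highest Tcf1-/+ array. The difference was 0.53, with an interval of -0.12 to 1.19 and a limma adjusted p of 0.832. Without Tcf1-/- replicate 1, the highest array, it was 0.30. On probe set 1437537_at the Tcf1-/- arrays read 7.78, 7.87 and 8.07 and the Tcf1-/+ arrays 8.28, 7.12 and 7.42. There Tcf1-/+ replicate 1 was the highest of the 6 arrays, and the difference was 0.30. On 1457816_at the values were 6.46, 6.70 and 6.24 against 6.51, 5.76 and 5.59, a difference of 0.51. The same Tcf1-/+ replicate 1 stood among the Tcf1-/- arrays. Both further intervals included 0.

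Casp8 encodes the initiator caspase of death receptors and was measured by 1 probe set, 1424552_at. It read 10.72, 10.70 and 10.78 in Tcf1-/-. It read 10.70, 10.98 and 10.46 in Tcf1-/+. The Tcf1-/- arrays lay within 0.09 of each other and inside the span of the controls. The difference of 0.02 had an interval of -0.50 to 0.53 and the smallest SE of the 20 probe sets, 0.21. Its range over the 6 arrays exceeded that of 15.6% of all tested probe sets.

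Casp6 encodes an executioner caspase that cleaves nuclear lamins. Its brighter probe set, 1415995_at, read 6.34, 7.05 and 6.32 in Tcf1-/- and 7.27, 6.34 and 6.67 in Tcf1-/+. The genotypes overlapped over most of their range, the difference being -0.19 (interval -1.02 to 0.64). The second probe set, 1458715_at, was near the background level of 5.21 on most arrays, at 5.15, 5.19 and 7.20 in Tcf1-/- and 5.74, 5.22 and 5.58 in Tcf1-/+. Tcf1-/- replicate 3 alone was clearly above the rest. Its difference of 0.33 turned to -0.34 without that array, and the opposite signs of the 2 probe sets leave Casp6 with no measured direction.

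Birc2 had the largest difference among the brightest probe sets of the 8 genes. Its single probe set, 1418854_at, read 8.52, 8.79 and 9.77 in Tcf1-/-. It read 9.85, 10.10 and 10.39 in Tcf1-/+. All Tcf1-/- arrays were below all controls, but Tcf1-/- replicate 3 came within 0.1 of Tcf1-/+ replicate 1. The means were 9.03 ± 0.66 (SD, n = 3) and 10.12 ± 0.27 (SD, n = 3). The difference was -1.09, with an interval of -2.00 to -0.17, or 2.13-fold lower, and a limma adjusted p of 0.708. Without Tcf1-/- replicate 3 it was -1.46. Its unadjusted limma p was 0.0271, and with single arrays left out it ran from 0.00285 to 0.0830, above 0.05 without Tcf1-/- replicates 1 or 2 or Tcf1-/+ replicates 2 or 3.

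Birc3 lies next to Birc2 on chromosome 9, with 0 annotated genes between them. Its brighter probe set, 1421392_a_at, read 8.13, 8.17 and 8.52 in Tcf1-/- and 8.92, 8.67 and 8.32 in Tcf1-/+. All 3 Tcf1-/- arrays lay below the Tcf1-/+ mean, and Tcf1-/+ replicate 3 lay among them. The difference was -0.37 with an interval of -0.96 to 0.23. On the weaker probe set, 1425223_at, the values were 6.38, 5.77 and 5.48 against 5.12, 5.46 and 5.70. The difference there was 0.45 in the opposite direction, with an interval of -0.30 to 1.20. The Birc2 and Birc3 proteins have shared several older names, but the RefSeq transcripts given for the Birc2 probe set and the brighter Birc3 probe set belonged to the gene named. The difference between these genes' responses was not tested.

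The promoters are shown because the study removed a factor that binds DNA, and because Apaf1 and Birc2 were the 2 genes with lower values at an unadjusted p under 0.05, while Birc3 is the neighbour of Birc2. Windows run from 250 bases before to 50 after the start site in RefSeq's GRCm38.p6, read 5′ to 3′ on the strand of the gene. The core letters CTTTG, followed by 2 bases that are each A or T, are known to be bound by TCF and LEF proteins and were searched on both strands. Capitals mark a match.
Apaf1, chr10:91082694-91082993, minus strand: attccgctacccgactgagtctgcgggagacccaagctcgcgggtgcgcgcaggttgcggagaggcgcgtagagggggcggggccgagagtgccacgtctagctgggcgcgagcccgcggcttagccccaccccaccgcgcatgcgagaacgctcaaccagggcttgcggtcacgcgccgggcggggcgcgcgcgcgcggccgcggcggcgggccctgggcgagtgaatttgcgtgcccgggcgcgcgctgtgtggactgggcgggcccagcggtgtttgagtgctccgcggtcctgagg
Birc2, chr9:7837008-7837307, minus strand: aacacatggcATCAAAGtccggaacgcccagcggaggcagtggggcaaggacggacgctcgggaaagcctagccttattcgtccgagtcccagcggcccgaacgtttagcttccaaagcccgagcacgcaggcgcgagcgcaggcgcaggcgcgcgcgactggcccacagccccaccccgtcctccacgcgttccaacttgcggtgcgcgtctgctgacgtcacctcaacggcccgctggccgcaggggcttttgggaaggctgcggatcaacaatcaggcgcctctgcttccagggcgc
Birc3, chr9:7873121-7873420, minus strand: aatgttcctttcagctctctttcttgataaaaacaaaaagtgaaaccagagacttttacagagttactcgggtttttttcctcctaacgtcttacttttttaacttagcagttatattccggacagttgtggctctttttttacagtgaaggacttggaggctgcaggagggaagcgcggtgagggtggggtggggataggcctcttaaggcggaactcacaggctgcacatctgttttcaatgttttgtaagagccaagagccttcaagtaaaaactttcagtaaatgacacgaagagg

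The 8 genes matched 11 windows, since Birc2 has 2 and Xiap 3, and 1 window held a match. It was in the first Birc2 window, where ATCAAAG, the reverse complement of CTTTGAT, begins 240 bases before the start site. Of all 32851 promoter windows of the same length, 16.9% held at least 1 match, so 1 of 11 is no more than windows in general show. The letters do not tell whether Tcf1 binds there, and binding was not measured. The Apaf1 window was 74.7% G or C with 46 CpG dinucleotides and the Birc2 window 67.0% with 34. The Birc3 window was 43.0% with 7, against a median of 52.7% G or C over all windows.

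**Figure D2:**
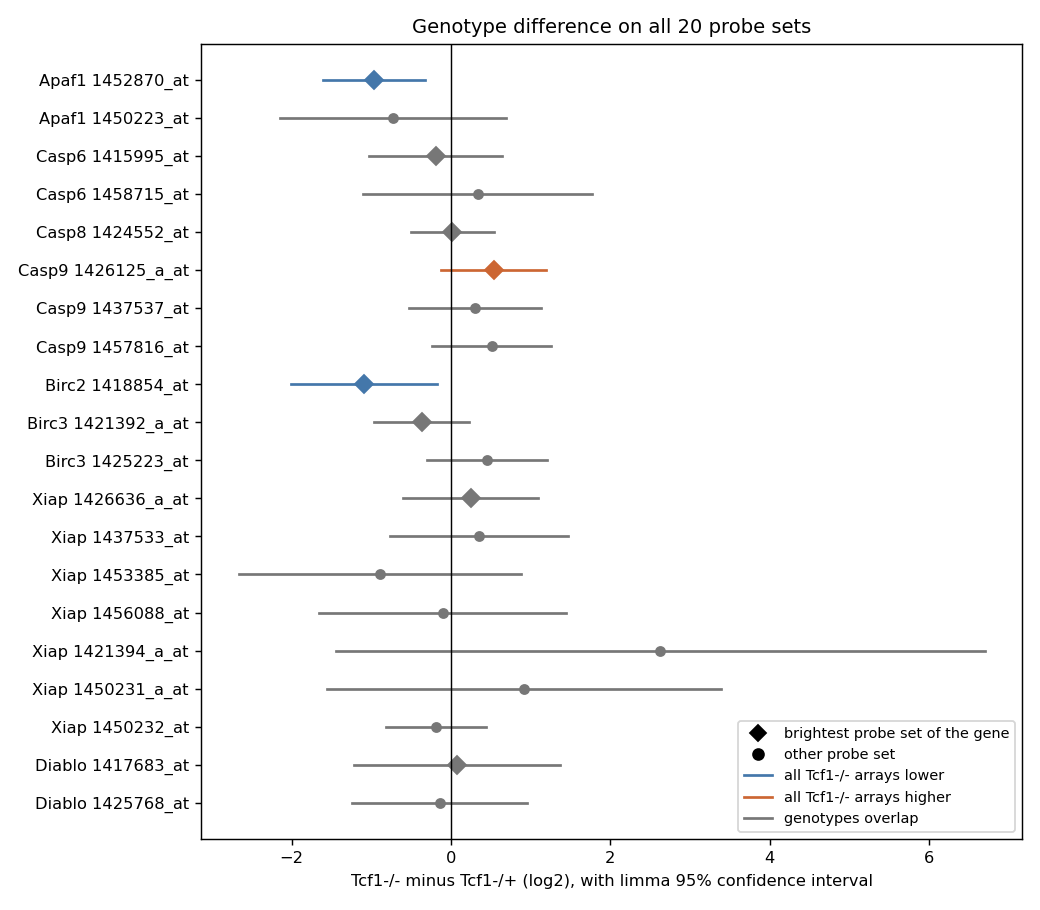
Difference between Tcf1-/- and Tcf1-/+ means (log2) for all 20 probe sets, with limma's 95% confidence interval. Diamonds are the brightest probe set of a gene and circles its others. The intervals of Apaf1 1452870_at and Birc2 1418854_at lie below 0 and the other 18 include it, with the widest on Xiap 1421394_a_at.

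Xiap, the IAP protein that binds and blocks caspases, was covered by 7 probe sets, and the Tcf1-/- mean was the higher one on 4 and the lower one on 3. The brightest, 1426636_a_at, read 8.78, 8.20 and 8.06 in Tcf1-/- and 7.54, 8.55 and 8.21 in Tcf1-/+. The genotypes overlapped, and Tcf1-/+ replicate 1 was the lowest array. The difference was 0.25 with an interval of -0.60 to 1.09. The next, 1437533_at, read 7.41, 8.47 and 7.94 against 7.82, 8.18 and 6.78, a difference of 0.35.

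The other Xiap probe sets did not follow these. Probe set 1453385_at read 7.25, 5.80 and 6.98 in Tcf1-/- and 6.08, 8.25 and 8.36 in Tcf1-/+, a difference of -0.89. Probe set 1456088_at read 5.75, 7.83 and 6.99 against 7.49, 7.31 and 6.08, a difference of -0.10. On 1450232_at, with 4.58, 4.77 and 4.02 against 4.74, 4.65 and 4.54, no array exceeded background. Probe set 1421394_a_at read 7.75, 10.02 and 4.58 in Tcf1-/- and 7.38, 3.29 and 3.80 in Tcf1-/+. It had a high and a low array in each genotype, and its spread over the 6 arrays, 6.73, exceeded that of 99.9% of all probe sets. Its difference was 2.63, with an interval of -1.45 to 6.70, but the Tcf1-/+ mean of 4.82 lay below background. With values floored at background the difference was 1.73. It was 1.34 without Tcf1-/- replicate 2 and 4.06 without Tcf1-/- replicate 3. Probe set 1450231_a_at also ranged widely, with 7.14, 6.61 and 5.92 against 4.21, 4.76 and 7.96, a difference of 0.92 with an interval of -1.55 to 3.38. Tcf1-/+ replicate 3 was the highest array on the latter and among the lowest on the former, so the 2 probe sets ranked the control arrays differently.

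Xiap is on the X chromosome, and the arrays differed in sex-linked signal. The mean level of 3 Y-linked genes was 5.004, 8.49 and 8.42 in Tcf1-/- and 4.07, 9.39 and 4.01 in Tcf1-/+. Xist, the RNA that coats an inactive X chromosome, read 13.45, 13.18 and 12.87 in Tcf1-/- and 13.39, 5.12 and 13.44 in Tcf1-/+. Both kinds of signal were high on Tcf1-/- replicates 2 and 3, and on no Tcf1-/+ array. Tcf1-/+ replicate 2 was high in Y-linked signal alone. Xist alone was high on Tcf1-/- replicate 1 and on Tcf1-/+ replicates 1 and 3. The mix of sex-linked signals thus differed between the genotypes. Whether an array held cells of several mice was not tested. When the Y-linked level entered the fit, the difference of the brightest Xiap probe set was 0.20, that of Apaf1 -0.97 and that of Birc2 -1.18. The weaker Xiap probe sets 1437533_at, 1453385_at and 1456088_at then differed by 0.08, -0.98 and -0.42, against 0.35, -0.89 and -0.10 without it. Probe sets 1421394_a_at, 1450231_a_at and 1450232_at differed by 3.12, 1.29 and -0.17, against 2.63, 0.92 and -0.19.

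Diablo, the mitochondrial antagonist of IAP proteins, had the widest spread within Tcf1-/- of the 8 brightest probe sets. Probe set 1417683_at read 8.65, 7.21 and 9.17 in Tcf1-/- and 8.44, 7.89 and 8.47 in Tcf1-/+. Tcf1-/- arrays were both the highest and the lowest of the 6. The difference was 0.08 with an interval of -1.22 to 1.37, and it was 0.64 without Tcf1-/- replicate 2. The weaker probe set, 1425768_at, read 6.32, 6.42 and 7.60 against 6.32, 7.27 and 7.17, a difference of -0.14 with an interval of -1.24 to 0.95. Tcf1-/- replicate 3 was the highest array on both probe sets.

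**Figure D3:**
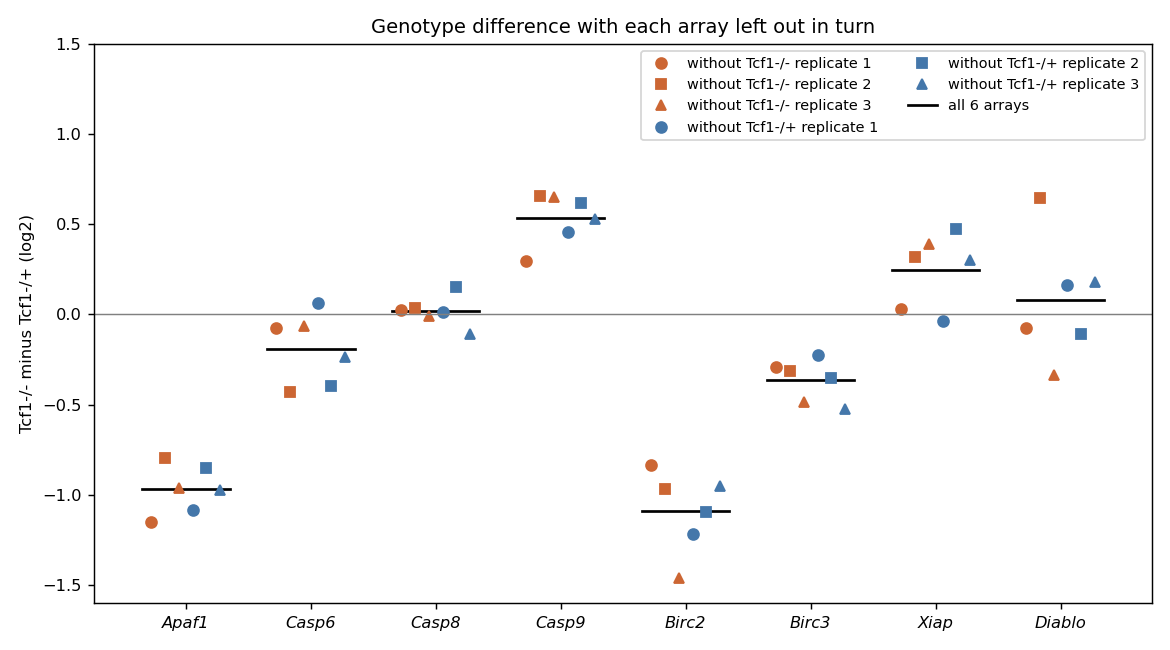
Difference between genotypes (log2) of the brightest probe set of each gene with each of the 6 arrays left out in turn (symbols) and with all arrays (black line). Apaf1 stayed between -1.15 and -0.80, Birc2 between -1.46 and -0.84 and Casp9 between 0.30 and 0.66, whereas Casp6, Casp8, Xiap and Diablo lay on both sides of 0.

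Tcf1-/- replicate 2 correlated with the other 5 arrays between 0.870 and 0.893 over all probe sets, and those 5 correlated between 0.913 and 0.933. Its limma array weight, which is lower for arrays that scatter more, was 0.53, against 1.08 to 1.19 for the others. Its transferrin receptor control signal, 3′ minus 5′, was 0.05, against -1.08 to -0.62. This array had the lowest value of the 6 arrays on both Apaf1 probe sets and on the brighter Diablo probe set. On Diablo 1425768_at it read 6.42, above the 6.32 of Tcf1-/- replicate 1 and of Tcf1-/+ replicate 1. With array weights Apaf1 differed by -0.89 and Birc2 by -1.05. Without Tcf1-/- replicate 2 Apaf1 differed by -0.80 and Birc2 by -0.97, with limma adjusted p of 0.747 and 0.873. Of the gate's genes, Cd44 read 9.60 to 10.39 over all arrays, and Il2ra, whose product CD25 was selected against, still read 9.22 to 10.97. Of the 9 genes of that list, 1 was higher and 3 were lower in Tcf1-/- at an unadjusted limma p under 0.05, and 0 passed after adjustment. Over all genes, 3.38% were higher and 3.4% lower at that p. Over all probe sets, 6.51% were higher and 5.27% lower without overlap. The lower ones were the progenitor markers Flt3 (-1.53) and Cd34 (-1.24), both without overlap, and the T-cell receptor component Cd3e (-1.66), with overlap. The higher one was Thy1 (2.48), a marker that rises as T cells develop, without overlap. Kit was at 7.45 on Tcf1-/- replicate 2 and between 9.60 and 10.80 on the other 5 arrays. Of other cell types, the NK and innate lymphoid list had 8 of 10 markers measured, 3 higher and 1 lower at an unadjusted p under 0.05. Higher at that p were Gzmb (4.06) and Id2 (3.19), both without overlap, and Il2rb (2.36), with overlap. Klrd1 (-1.49) was lower, without overlap, and the list had 5 higher and 3 lower means. The summed signal of the list (log2 of the linear sum) was 12.29 to 13.06 in Tcf1-/- and 10.46 to 11.32 in Tcf1-/+. Ncr1 and Tbx21 had means below background in both, although Ncr1 exceeded it on 2 arrays and Tbx21 on 1. The double-positive and mature T-cell list, 7 of 8 measured, summed to 9.69 to 10.77 against 9.03 to 9.65, with Cd8b1 below background in both. Its 7 genes had 4 higher and 3 lower means, with Cd4 higher by 2.93 and Cd5 lower (-1.12) at an unadjusted limma p under 0.05, both without overlap. Summed erythroid, myeloid, B-cell, dendritic and stromal signals overlapped between genotypes. The erythroid list, 6 of 8 measured, had 5 higher and 1 lower means, with a median difference of 1.23. It summed to 9.31 to 11.44 in Tcf1-/- and 7.45 to 10.52 in Tcf1-/+, and 0 of its genes passed an unadjusted p. Its Car1 read 10.97, 7.85 and 9.42 against 4.12, 4.66 and 9.24, so Tcf1-/+ replicate 3 alone of the controls was high. Alas2 (-0.50) was the lower one. Of the 7 dendritic markers, 2 were lower at an unadjusted limma p under 0.05, Cd74 (-1.61) and Flt3, both without overlap. Flt3 was already counted among the gate's genes. The part of these markers in the Apaf1 and Birc2 values was not tested.

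The other genes of the pathway were read from 7 lists, with 76 measured genes in all. Over all genes, 3.38% had a higher and 3.4% a lower Tcf1-/- mean at an unadjusted p under 0.05, and the median difference was 0.04. In each of the 7 lists 0 genes passed limma's adjusted threshold.

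Of the other caspases 5 of 7 were measured, of which 2 had both means below background, and 2 were lower at an unadjusted p under 0.05. Casp1, the inflammatory caspase that processes interleukin 1 beta, read 7.77, 8.17 and 7.03 in Tcf1-/- and 8.91, 8.44 and 8.59 in Tcf1-/+. These did not overlap, with a difference of -0.99 (SE 0.34). Casp2 differed by -1.27 (SE 0.48), with overlap, and Casp4 by 0.13 (SE 0.52). The median of the list was -0.11. Of further IAP genes and antagonists, 9 of 10 were measured, 0 passed an unadjusted p in either direction and the median was -0.03. Birc6, a giant ubiquitin-conjugating IAP protein, differed by -0.32 (SE 0.32), and 4 of its 5 weaker probe sets went the other way. Htra2, a mitochondrial protease that like Diablo binds IAP proteins, differed by -0.30 (SE 0.30), and its other probe set by 0.02. Xaf1, an interferon-induced partner of Xiap, read 8.70, 11.29 and 11.22 in Tcf1-/- and 9.33, 9.40 and 9.28 in Tcf1-/+. Tcf1-/- replicates 2 and 3 were above all controls and replicate 1 below them.

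Around the apoptosome, 10 of 11 genes were measured, 8 with a lower mean, and 0 passed an unadjusted p. Cse1l, known to promote apoptosome assembly, differed by -0.55 (SE 0.32). Anp32a differed by 0.36 (SE 0.26), with 2 of 2 other probe sets of the opposite sign. The chaperone gene Hspa1a ranged from 4.23 to 8.24 in Tcf1-/- and from 5.49 to 8.28 in Tcf1-/+. In the death receptor complex, 11 of 12 were measured, with 7 higher means and a median of 0.11, and 2 were higher at an unadjusted p. Fasl, the ligand of Fas, read 9.89, 9.61 and 9.39 against 9.35, 8.88 and 8.62, a difference of 0.68 (SE 0.27) without overlap, and its other probe set differed by -0.54. Fadd, the adaptor that binds caspase-8, differed by 1.05 (SE 0.39) with overlap. Cflar, the catalytically inactive homologue that restrains caspase-8, differed by 0.64 (SE 0.38), and 1 of its 4 weaker probe sets went the other way.

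Of the partners of Birc2 and Birc3 and the NF-kB genes, 14 of 17 were measured, 8 with a higher mean, with 1 higher and 1 lower at an unadjusted p. Map3k7, the kinase TAK1, differed by 0.77 (SE 0.25), and 2 of its 5 weaker probe sets pointed the other way. Tab1, its binding partner, differed by -1.24 (SE 0.45), and its other probe set by 0.07. Nfkbia, an NF-kB target and inhibitor, differed by 0.60 (SE 0.34), and 1 of its 4 weaker probe sets went the other way.

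The caspase substrates had the lowest median of the lists, -0.35, with 11 of 14 means lower and 1 gene lower at an unadjusted p. Acin1, a chromatin condensation factor, read 8.75, 9.11 and 9.86 in Tcf1-/- and 10.12, 10.44 and 10.79 in Tcf1-/+. The genotypes did not overlap and the difference was -1.21 (SE 0.35). Parp1, a DNA repair enzyme that executioner caspases cleave, differed by -1.47 (SE 0.67), with 7.78 on Tcf1-/- replicate 2 and 10.40 on replicate 1. Dffa, the inhibitor of the caspase-activated nuclease, differed by -0.90 (SE 0.41), and its other probe set by 0.17. In the BCL-2 family, which decides on cytochrome c release, 10 of 13 measured genes had a higher mean, 1 at an unadjusted p, and the median was 0.21. That gene was Bcl2, an inhibitor of that release, which read 12.30, 12.17 and 12.55 against 11.29, 11.39 and 11.90. Its difference was 0.81 (SE 0.25), without overlap. Bak1, a pore-forming member, differed by -0.82 (SE 0.47) and Bbc3, which encodes the p53 target Puma, by 0.30 (SE 0.22).

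**Figure D4:**
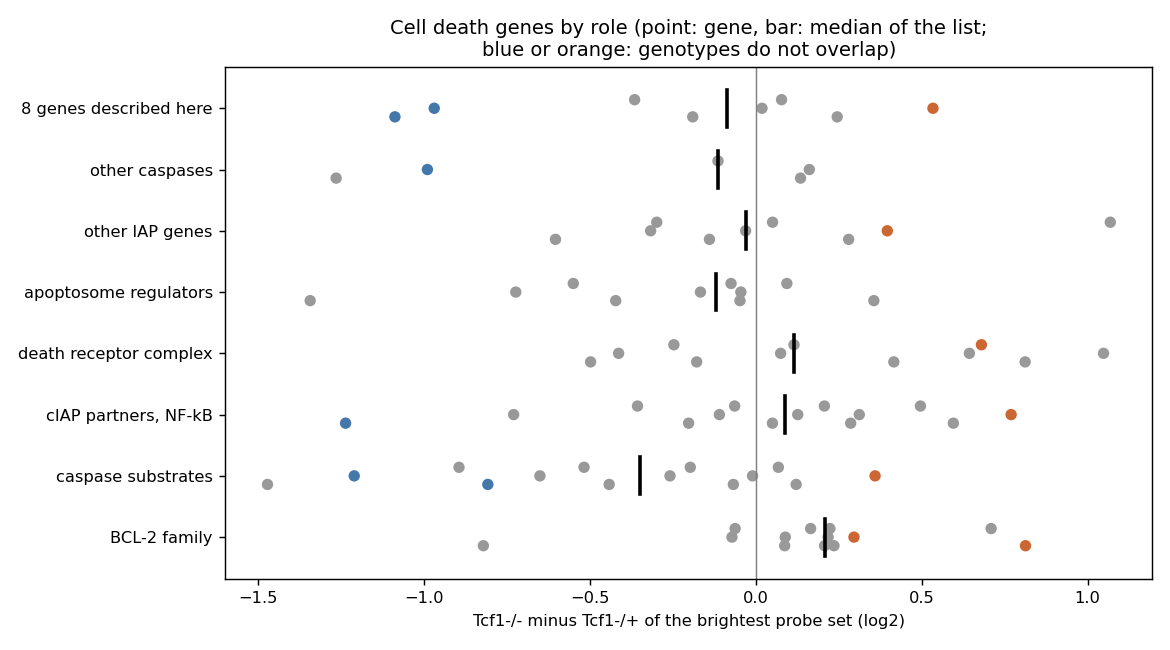
Difference between genotypes (log2) of the brightest probe set of each gene, for the 8 genes and 7 lists of genes around them. Points are genes, in blue or orange where the genotypes do not overlap (lower or higher in Tcf1-/-), and black bars are list medians, which lay between -0.35 for the caspase substrates and 0.21 for the BCL-2 family.

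The genes whose level followed that of Apaf1 most closely over the 6 arrays were Polr3b, Ercc6l and Lcmt2, with Pearson correlations of 0.986, 0.983 and 0.981. They were the highest of 10628 genes searched, of which 27 exceeded 0.95, and the arrays are shared by all of them. Polr3b, a subunit of RNA polymerase III, read 8.61, 7.92 and 8.53 in Tcf1-/- and 9.22, 9.73 and 9.53 in Tcf1-/+. Like Apaf1, it was lowest on Tcf1-/- replicate 2 and highest on Tcf1-/+ replicate 2. Polr3b, Ercc6l and Lcmt2 differed by -1.14, -1.55 and -1.81 between genotypes, all without overlap. Apaf1 was chosen for its small genotype p and these genes for their likeness to it. Their shared order and lower values thus follow from the choice and are no separate result.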

How the data were processed

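RNA was amplified with a whole-transcriptome kit from about 1000 cells, which yielded 3 ng on average, per the labels' protocols. The values are log2 summaries per probe set as deposited by the authors, between 2.15 and 14.8. Their background correction, summarization and normalization are not given in the sources used here, and the medians of the arrays ran from 5.80 to 5.87. No normalization was added. After 64 control probe sets were left out, 45037 were tested, of which 34945 had 1 symbol, 932 several and 9160 none here. Symbols came from the platform annotation, and the gene identifiers of the members carried the same symbols in RefSeq. The background level of 5.21 is the 95th percentile of 27 control probe sets for bacterial transcripts. Precision is limited by the number of arrays, which carry no read depth.

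The genotype comparison used limma 3.58.1 (R 4.3.3; lmFit, then eBayes; two-sided, 3 against 3 arrays, no covariates), fitted over all probe sets with Benjamini-Hochberg adjustment over all of them, and checked on simulated data. An exact permutation of 3 against 3 arrays cannot go below 0.1. Alternatives were the replicate block, quantile normalization, a common median, array weights, a variance trend, robust variances, a filter and a floor at background, the mean of a gene's probe sets, the Y-linked level as covariate, and each array left out. The 8 genes were always named. Of each pathway list, the up to 3 genes of smallest unadjusted p above background in at least 1 genotype were named, and for the member of smallest p the 3 genes of most similar level. Other genes, which are cell type and sex-linked markers, were named from lists of such markers. Whether they move with the members was not tested. Members and lists were chosen with earlier results of these data known. Listed genes without a probe set of 1 symbol were not analysed here, nor was Tcf7, so the genotype labels were not checked on the targeted gene. No columns of values were left unused.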

Additional observations from a re-analysis of the deposited data

How the results depend on the processing

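Under every alternative 0 probe sets passed the adjusted threshold, and the count at an unadjusted p under 0.05 lay between 1990 and 3487, against 2917. Among the 20 probe sets described, 2 had an unadjusted p under 0.05, also with the replicate block, and between 1 and 5 when single arrays were left out. The count was 5 without Tcf1-/+ replicate 1, and 1 without Tcf1-/- replicate 1, Tcf1-/- replicate 2 or Tcf1-/+ replicate 2. Apaf1, Birc2 and Casp9 kept their direction throughout. With the replicate block Apaf1 differed by -0.97 (limma adjusted p 0.713) and Birc2 by -1.09 (limma adjusted p 0.674), and the block changed no call. No label ties same-numbered arrays to a common source. Deviations of same-numbered arrays from their group means correlated at 0.0298, 0.0445 and 0.0117, with 3 of 6 arrays correlating best with their own number. With the mean of all probe sets the sign turned for Casp6 (0.0715), Birc3 (0.0421), Diablo (-0.0321), Birc6 (0.26), Anp32a (-0.47) and Map3k7 (-0.0141), and with the Y-linked covariate for Casp8 (-0.0632). With single arrays left out, signs turned within ranges of -0.43 to 0.0641 for Casp6, -0.11 to 0.15 for Casp8, -0.0350 to 0.47 for Xiap, -0.34 to 0.64 for Diablo and -0.27 to 0.54 for Casp4. They turned likewise for weaker probe sets, from -0.34 to 0.68 for Casp6 1458715_at, -0.0582 to 0.64 for Xiap 1437533_at, -0.59 to 0.45 for Xiap 1456088_at, -0.34 to 0.0344 for Xiap 1450232_at and -0.55 to 0.0861 for Diablo 1425768_at. The causes were not tested. Xiap 1450232_at had no value with the floor or the filter. The smaller lists' counts at an unadjusted p ran from 0 to 3 over the alternatives. The 95% intervals of all 20 probe sets were more than 1 log2 unit wide.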
